A study of Homo sapiens with 2 samples.

Results

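Brain tissue is the main home of miR-124, miR-128, miR-129 and miR-138, and here they were counted in Argonaute proteins of a kidney cell line. Their 9 precursors were taken by name from the precursor tables: hsa-mir-124-1, hsa-mir-124-2 and hsa-mir-124-3, hsa-mir-128-1 and hsa-mir-128-2, hsa-mir-129-1 and hsa-mir-129-2, and hsa-mir-138-1 and hsa-mir-138-2, written below without the species prefix. They are 9 of 1038 precursors with any count and 9 of 411 with at least 100 counts over both libraries, the minimum used for ratios. The miRNAs were chosen by name with the measured AGO3 over AGO2 count ratios of these libraries already known, which among the 9 are highest for mir-129-2 and lowest for mir-124-3. The ratios below are therefore a description and were not tested.

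Small RNA was sequenced after FLAG pull-down from HEK293 T-Rex cells expressing FLAG:AGO2 or FLAG:AGO3; HEK293 is a line from human embryonic kidney. Both groups share the parent line, and the labels do not say whether either rests on 1 clone. There was 1 library per protein, so differences between them lack a replicate check, and p-values are not given. No library from cells without the tag was analysed here, and the 3′ adapter also differed between the libraries, so that adapter and protein cannot be told apart. The AGO2 library held 3485257 precursor counts among 6674064 reads (52.2%) and the AGO3 library 3055417 among 4667236 (65.5%). Markers of other tissues were checked as a list: the liver miRNA mir-122 had 1 count in AGO2 against 2 in AGO3, 8 muscle precursors summed to 60 and 116, 6 blood precursors to 335 and 228, and 6 epithelial precursors to 48 and 71. Of these, mir-206, mir-208a, mir-223, mir-155 and mir-200a were at 0 in both libraries. Past the minimum of 100 counts were the blood precursors mir-142, with 197 and 184 counts, and mir-144, with 103 and 32. So was the endothelial mir-126, by far the most counted of the list, with 100671 and 143256 counts. Where the counts of these markers came from, and their part in the ratios below, was not tested.

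A miRNA is cut from a hairpin by Drosha and Dicer, and 1 arm of the hairpin is then held by Argonaute, which finds target RNAs mainly through the seed, bases 2 to 8 of the miRNA. The brain-enriched miR-124 represses genes of non-neuronal cells, among them the splicing factor PTBP1. The brain-enriched miR-128 is known for limiting the excitability of neurons, miR-129 is studied for its part in synaptic scaling, and miR-138 restrains the growth of dendritic spines. Each is encoded by more than 1 hairpin, and the copies share a mature arm.

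The sequences show which reads can tell the copies apart. In the RefSeq table, on build GRCh38.p14, 6 of the 9 precursors were matched, those of miR-128, miR-129 and miR-138. The mature arms are given 5′ to 3′ with the seed in capitals.
miR-128-3p: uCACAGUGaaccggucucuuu
miR-128-1-5p: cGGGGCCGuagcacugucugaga
miR-128-2-5p: gGGGGCCGauacacuguacgaga
miR-129-5p: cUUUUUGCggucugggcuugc
miR-129-1-3p: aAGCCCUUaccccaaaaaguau
miR-129-2-3p: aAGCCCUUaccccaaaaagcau
miR-138-5p: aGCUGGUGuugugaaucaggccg
miR-138-1-3p: gCUACUUCacaacaccagggcc
miR-138-2-3p: gCUAUUUCacgacaccaggguu
The arm named without a copy number is identical in both copies of miR-128 (3p), miR-129 (5p) and miR-138 (5p), and the opposite arm differs. Both 5p arms of miR-128 share 1 seed, and so do both 3p arms of miR-129. The 3p arms of miR-138 do not share a seed: C5U lies within it. Among 2370 mature entries, the seed of miR-128-3p was also that of miR-216a-3p and miR-3681-3p. Their precursors were rare: mir-216a was counted 8 times in AGO2 against 21 in AGO3, and mir-3681 had none. The seeds of miR-129-5p and miR-138-5p belonged to no other entry.

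The hairpins are printed to show how much of each copy its partner repeats, with the mature arms in capitals.
mir-128-1: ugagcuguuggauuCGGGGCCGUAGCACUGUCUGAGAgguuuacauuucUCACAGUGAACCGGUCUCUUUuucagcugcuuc
mir-128-2: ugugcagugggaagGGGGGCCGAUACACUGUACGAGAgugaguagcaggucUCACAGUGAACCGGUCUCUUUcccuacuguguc
mir-129-1: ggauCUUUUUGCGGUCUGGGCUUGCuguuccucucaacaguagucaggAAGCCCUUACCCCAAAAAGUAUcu
mir-129-2: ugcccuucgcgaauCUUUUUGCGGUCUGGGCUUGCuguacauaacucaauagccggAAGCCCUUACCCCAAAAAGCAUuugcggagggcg
mir-138-1: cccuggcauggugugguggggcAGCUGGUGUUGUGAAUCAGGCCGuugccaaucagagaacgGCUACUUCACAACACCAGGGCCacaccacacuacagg
mir-138-2: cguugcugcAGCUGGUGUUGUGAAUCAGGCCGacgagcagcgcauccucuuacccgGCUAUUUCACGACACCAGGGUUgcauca
These RefSeq hairpins lie on the plus strand of GRCh38.p14, mir-128-1 at chr2:135665397-135665478, mir-128-2 at chr3:35744476-35744559, mir-129-1 at chr7:128207872-128207943, mir-129-2 at chr11:43581394-43581483, mir-138-1 at chr3:44114212-44114310 and mir-138-2 at chr16:56858518-56858601. The longest stretch shared by both copies was 23 bases in miR-128, 26 in miR-129 and 25 in miR-138, in each case the shared arm with a few flanking bases. Of the windows of 18 bases along the first copy, 6 of 65 were also in the second for miR-128, 13 of 55 for miR-129 and 8 of 82 for miR-138. All shared windows of miR-128 and miR-138 lay within that stretch, whereas 4 of the 13 of miR-129 lay outside it, over the 3p arm. A read of the shared arm therefore matches both hairpins, and so can some reads of the 3p arm of miR-129. Counting from 1 at the 5′ end of each arm, the 3p arms of miR-129 differ by U20C alone. The 5p arms of miR-128 differ at 6 places (C1G, U9A, A10U, G11A, C18A and U19C), and the 3p arms of miR-138 at 4 (C5U, A11G, C21U and C22U), with the base of the first copy written first.

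The deposited counts cover both arms of a hairpin together, and how reads that match several copies were assigned is not stated in the labels or file headers. Each level below is therefore that of an entry in the table and may hold reads of another copy. Reads of small RNAs span the whole miRNA, so counts were not divided by length.

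With all copies added up, miR-129 and miR-138 took a larger share of the AGO3 library, miR-128 a somewhat larger one and miR-124 a smaller one. Ratios are log2 of the AGO3 share over the AGO2 share of all precursor counts, with an exact 95% interval that covers counting error only. In AGO2 miR-138 had 714 counts against 3151 in AGO3, and the log2 ratio was 2.33 (2.21 to 2.45), or 5.03-fold. In AGO2 miR-129 had 1599 counts against 6490 in AGO3, and the log2 ratio was 2.21 (2.13 to 2.29), or 4.63-fold. These were the 2 least counted of the 4 miRNAs in AGO2, and they had the widest differences towards AGO3. The AGO2 count is itself part of the ratio, and the miRNAs were chosen with the ratios known, so nothing is read from this. In AGO2 miR-128, the most abundant by far, had 37986 counts against 55515 in AGO3, and the log2 ratio was 0.74 (0.72 to 0.76), or 1.67-fold. In AGO2 miR-124 had 2307 counts against 843 in AGO3, and the log2 ratio was −1.26 (−1.38 to −1.15), so that its share was 2.40-fold smaller in AGO3. All 9 precursors together made up 1.22% of the precursor counts of AGO2 and 2.16% of those of AGO3, of which miR-128 held 89.2% and 84.1%. Scaled to all reads of each library, miR-128 passed 2-fold at 1.06 and miR-124 no longer did at −0.94.

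**Figure D1:**
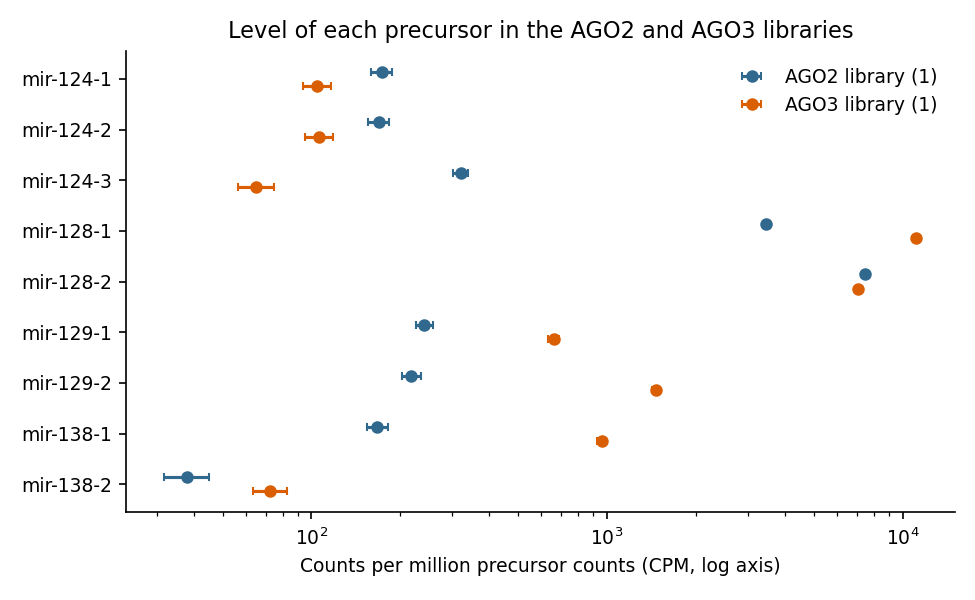
Level of each of the 9 precursors in CPM of precursor counts (log axis), with 1 point per library and bars for the exact 95% Poisson interval of the count. The points of mir-128-2 nearly coincide, those of mir-128-1, miR-129 and miR-138 lie higher in AGO3, and those of miR-124 lie lower in AGO3.

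Of the single precursors, 4 were at least 2-fold higher in AGO3, 1 was at least 2-fold lower and 4 were less than 2-fold apart. Over all 411 precursors past the minimum, 24.6% were at least 2-fold apart, 15.8% higher and 8.76% lower in AGO3. Since the 9 were chosen with these ratios known, nothing is read from their count of 5. The median log2 ratio of the 9 was 0.94, against 0.08 over all 411, and for the same reason nothing is read from it.

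The order of the precursors differed between the libraries. In AGO2 it ran from mir-128-2 and mir-128-1 through mir-124-3, mir-129-1, mir-129-2, mir-124-1, mir-124-2 and mir-138-1 to mir-138-2. Within it the Poisson intervals of mir-129-1 and mir-129-2 overlapped, and so did those of mir-124-1 and mir-124-2 and of mir-124-2 and mir-138-1. In AGO3 mir-128-1 stood before mir-128-2, followed by mir-129-2, mir-138-1, mir-129-1, mir-124-2, mir-124-1, mir-138-2 and mir-124-3. Here the neighbours mir-124-2 and mir-124-1 overlapped, and so did mir-138-2 and mir-124-3. The entry mir-124-3 went from place 3 among the 9 to place 9.

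For miR-128 the copies parted. The precursor mir-128-1, from an intron of R3HDM1, had 12054 counts in AGO2 and 33857 in AGO3, or 3459 and 11081 CPM (counts scaled to the same library total). Its log2 ratio was 1.68 (1.65 to 1.71), and its rank among all precursors went from 62 to 24. The precursor mir-128-2 had 25932 and 21658 counts, or 7440 and 7088 CPM, and ranked 34 and 37. Its log2 ratio was −0.07 (−0.10 to −0.04) and turned to 0.26 when the libraries were scaled to all their reads, so its direction is not settled. The share of mir-128-1 in the counts of miR-128 was 31.7% (31.3 to 32.2) in AGO2 and 61.0% (60.6 to 61.4) in AGO3. The more abundant entry of miR-128 was therefore mir-128-2 in AGO2 and mir-128-1 in AGO3, although the 3p arm is the same in both.

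For miR-129 both copies were higher in AGO3, but not equally. The precursor mir-129-2 had 759 AGO2 counts and 4476 AGO3 counts. Its log2 ratio was 2.75 (2.64 to 2.86), and its rank went from 196 to 110. The precursor mir-129-1 had 840 and 2014 counts, and its log2 ratio was 1.45 (1.33 to 1.57), with ranks of 190 and 156. In AGO2 the copies had near equal parts of the miR-129 counts, with 47.5% (45.0 to 49.9) for mir-129-2. In AGO3 mir-129-2 held 69.0% (67.8 to 70.1).

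For miR-138 most counts stood on mir-138-1 in both libraries. This precursor had 582 AGO2 counts and 2929 AGO3 counts. Its log2 ratio was 2.52 (2.39 to 2.65), and its rank went from 215 to 130. The copy mir-138-2 was the rarest of the 9 in AGO2, with 132 counts against 222 in AGO3, a log2 ratio of 0.94 (0.62 to 1.26). The interval of mir-138-2 spans the 2-fold line, so its place on either side of that line is not resolved at this depth, and it stood at 1.26 with scaling to all reads. The share of mir-138-1 in the miR-138 counts was 81.5% (78.5 to 84.3) in AGO2 and 93.0% (92.0 to 93.8) in AGO3.

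For miR-124 all 3 entries were lower in AGO3, and mir-124-3 most of all. The entry mir-124-3 had 1116 AGO2 counts and 199 AGO3 counts. Its log2 ratio was −2.29 (−2.52 to −2.08), and its rank went from 176 to 277. The entries mir-124-1 and mir-124-2 could not be told apart in either library. For mir-124-1 the AGO2 count of 603 faced 319 in AGO3 at a log2 ratio of −0.73 (−0.93 to −0.53). For mir-124-2 the AGO2 count of 588 faced 325 in AGO3 at a log2 ratio of −0.66 (−0.87 to −0.47). The share of mir-124-3 in the miR-124 counts was 48.4% (46.3 to 50.4) in AGO2 and 23.6% (20.8 to 26.6) in AGO3.

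**Figure D2:**
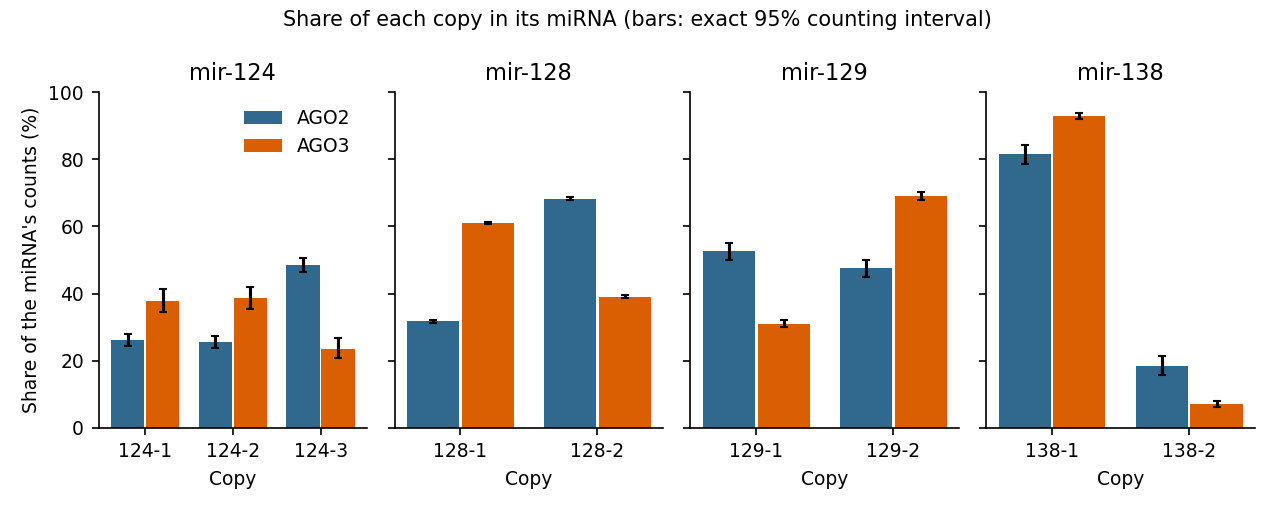
Share of each numbered copy in the counts of its miRNA (percent), with 1 bar per library and bars for the exact 95% interval. The larger share of miR-128 passes from mir-128-2 in AGO2 to mir-128-1 in AGO3, mir-129-2 goes from 47.5% to 69.0%, mir-138-1 from 81.5% to 93.0% and mir-124-3 from 48.4% to 23.6%.

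The ratios of the copies were thus 1.75 apart on the log2 scale in miR-128, 1.63 in miR-124, 1.58 in miR-138 and 1.30 in miR-129. The same spread was taken for all 37 miRNAs with at least 2 numbered copies past the minimum. Its median was 0.65, and 35.1% of these miRNAs (13) had copies at least 2-fold apart in their ratios. The 4 miRNAs ranked 5 (miR-128), 7 (miR-124), 9 (miR-138) and 10 (miR-129) among the 37, and no test was made since they were chosen with the ratios known.

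**Figure D3:**
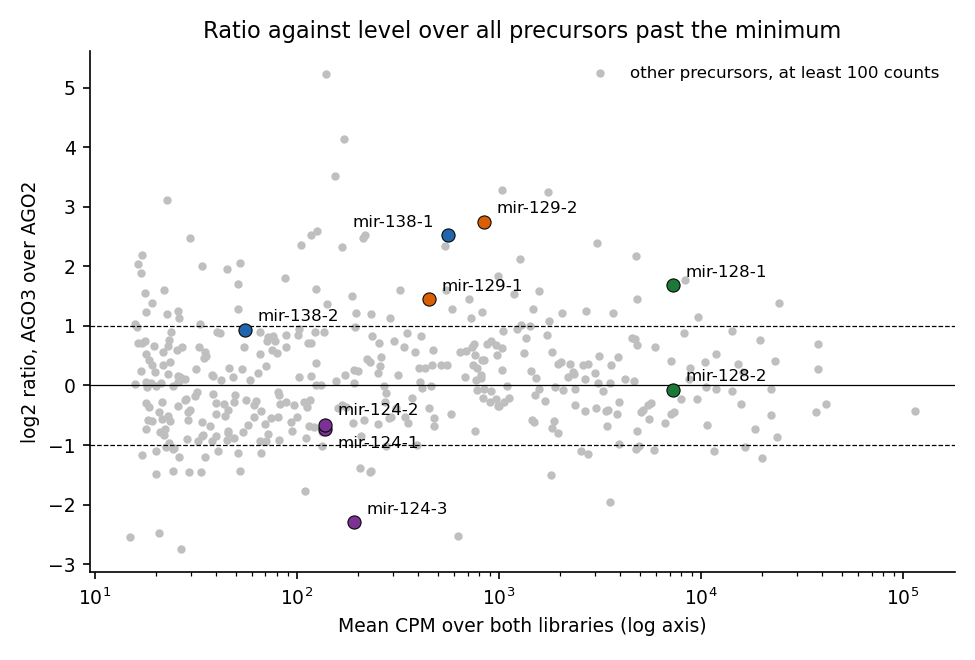
Log2 ratio of AGO3 over AGO2 against the mean CPM over both libraries (log axis) for the 411 precursors with at least 100 counts; coloured points are the 9 precursors and dashed lines mark 2-fold. Those of miR-129, mir-138-1 and mir-128-1 lie above the upper line and mir-124-3 lies below the lower one, while mir-128-2 lies near 0, with a sign that turns with the scaling.

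By distance in log2 CPM over both libraries, a measure over only 2 values, the precursors nearest to the most counted copies were sought among the 411. Nearest to mir-138-1 was mir-574, with 623 counts in AGO2 and 2774 in AGO3, at a distance of 0.13. Nearest to mir-128-2 was mir-1307, with 29907 and 22413 counts, at 0.21. Nearest to mir-129-2 was mir-486, with 672 and 5745 counts, at 0.40. Nothing lay as close to mir-124-3, whose nearest precursor was mir-548e, with 1029 and 347 counts, at 0.81.

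The list of other brain-enriched miRNAs, also chosen with earlier results of these data known, held 23 names, of which 13 were past the minimum. Of these, 10 were higher and 3 lower in AGO3 (9 and 4 with TMM scaling). Their median log2 ratio was 0.32 against 0.08 over all precursors. The share of all precursors higher in AGO3 was not counted, and their median already lay on the AGO3 side. Copies of mir-9, mir-218 and mir-153 are among the 13, so no lean towards AGO3 is read from these numbers. At least 2-fold apart were 2 of the 13, beside 24.6% of all precursors. Higher was mir-338, a miRNA of myelinating cells, with 1594 and 3066 counts, and its log2 ratio was 1.13 (1.05 to 1.22). Lower was mir-153-1, with 116 and 49 counts, and its log2 ratio was −1.05 (−1.57 to −0.56), an interval that spans 2-fold. Neither call held under every scaling: mir-338 was at 0.97 with TMM and mir-153-1 at −0.72 with scaling to all reads. Its copy mir-153-2 stood at −0.60 (−1.10 to −0.12), from 99 and 57 counts.

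The most counted of this list were the copies of mir-218, which acts in motor neurons. The copy mir-218-1 had 29527 and 19075 counts, and its log2 ratio was −0.44 (−0.47 to −0.41). The copy mir-218-2 had 27596 and 29679 counts, and its log2 ratio was 0.29 (0.27 to 0.32). These copies of 1 miRNA therefore stood on opposite sides of 0. The entry mir-488 had 16156 and 22275 counts, and its log2 ratio was 0.65 (0.62 to 0.68). The activity-regulated neighbours mir-132 and mir-212 were at 0.62 (0.55 to 0.69) and 0.32 (0.05 to 0.59). The copies of mir-9, a regulator of neural progenitors, were at 0.15 (mir-9-1, which turned to −0.01 with TMM scaling), 0.51 (mir-9-2) and 0.50 (mir-9-3), closer to each other than those of miR-124. The remaining mir-346 at 0.43 (−0.11 to 0.98) did not differ beyond counting error, and mir-149 was at 0.17 (0.00 to 0.34). Of the 10 names not past the minimum, 2 were listed in neither library, mir-137 and mir-323, the latter an older name of mir-323a, which is also in the list. The others had at most 89 counts over both.

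**Figure D4:**
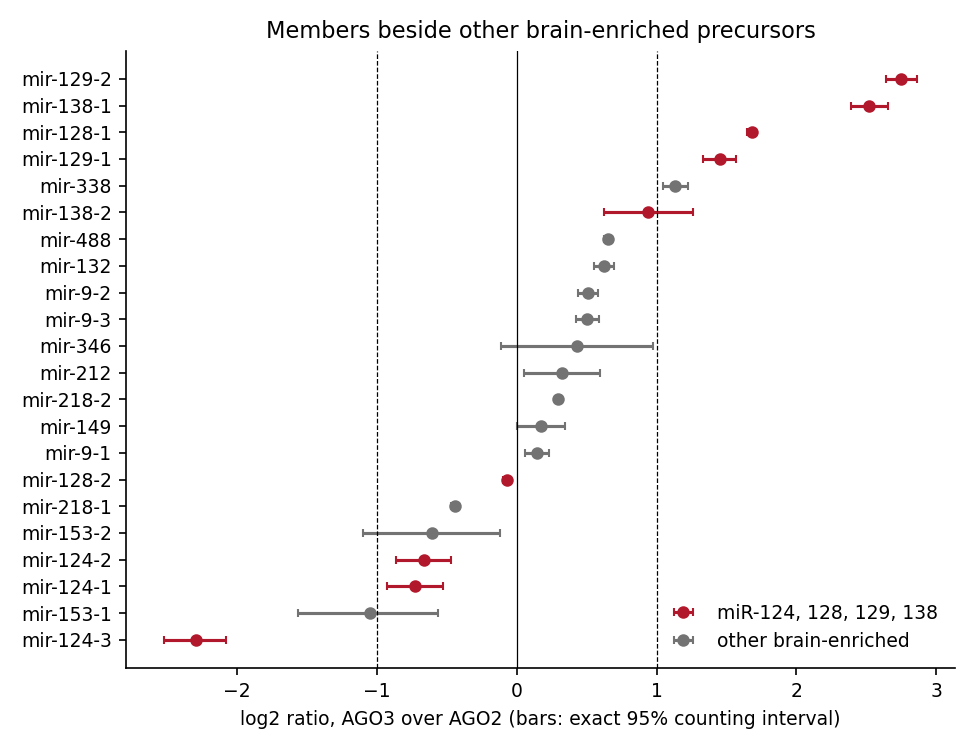
Log2 ratio of AGO3 over AGO2 for the 9 precursors (red) and the 13 other brain-enriched precursors past the minimum (grey), ordered by ratio, with exact 95% intervals and dashed lines at 2-fold. Red points lie at both ends, from mir-124-3 at −2.29 to mir-129-2 at 2.75, and the grey points lie between −1.05 and 1.13. Both sets were chosen with earlier results of these data known, so nothing is read from their places. The sign of mir-128-2 turns with the scaling.

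A separate list of read stacks, runs of overlapping reads on build hg19 that keep strand, pools libraries without naming them. It held 68649476 reads, more than the 11341300 reads of both libraries. Stacks named on the sense strand were found for 5 of the 9 precursors. None carried the name of mir-124-1, mir-124-2, mir-124-3 or mir-128-2. Among precursors past the minimum, 330 of 411 had such a stack (80.3%), but only 40 of 85 numbered copies (47.1%) against 290 of 326 others (89.0%).

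The copy mir-128-1 had 2 stacks, 6 bases apart on the plus strand within an R3HDM1 intron. The upstream stack at chr2:136422960-136423004 held 1859 reads and the downstream stack at chr2:136423011-136423056 held 56172, or 96.8% (96.7 to 96.9) of the total. The downstream stack lies on the side of the 3p arm printed above, the arm that both copies share. The other 42 stacks in R3HDM1 that named no miRNA held 65 reads in all. In ARPP21, the host gene of mir-128-2, 4 stacks held 11 reads, none of them named for the miRNA, although mir-128-2 had 47590 counts over both libraries. Of the miR-128 reads in the pooled stacks, 100% were thus on mir-128-1, against 31.7% of the miR-128 counts in AGO2 and 61.0% in AGO3. The stacks pool libraries that are not named, so these shares may rest on different reads.

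Each other named copy had 1 stack. That of mir-129-2 at chr11:43602939-43603039 held 12819 reads and that of mir-129-1 at chr7:127847929-127847994 held 3281, so that mir-129-2 had 79.6% (79.0 to 80.2) of the miR-129 stack reads. For miR-138 the stack of mir-138-1 at chr3:44155724-44155792 held 22526 reads and that of mir-138-2 at chr16:56892419-56892507 held 8853, or 28.2% (27.7 to 28.7). The share of mir-138-2 was thus larger in the stacks than in either precursor table, where it was 18.5% in AGO2 and 7.05% in AGO3. Per precursor count of both libraries, mir-138-2 had 25.0 stack reads, mir-138-1 had 6.42, mir-129-2 had 2.45, mir-128-1 had 1.26 and mir-129-1 had 1.15. The median over 330 precursors was 6.46, with quartiles of 2.18 and 16.7, so that mir-138-2 lay above the upper quartile and mir-128-1 and mir-129-1 below the lower one.

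**Figure D5:**
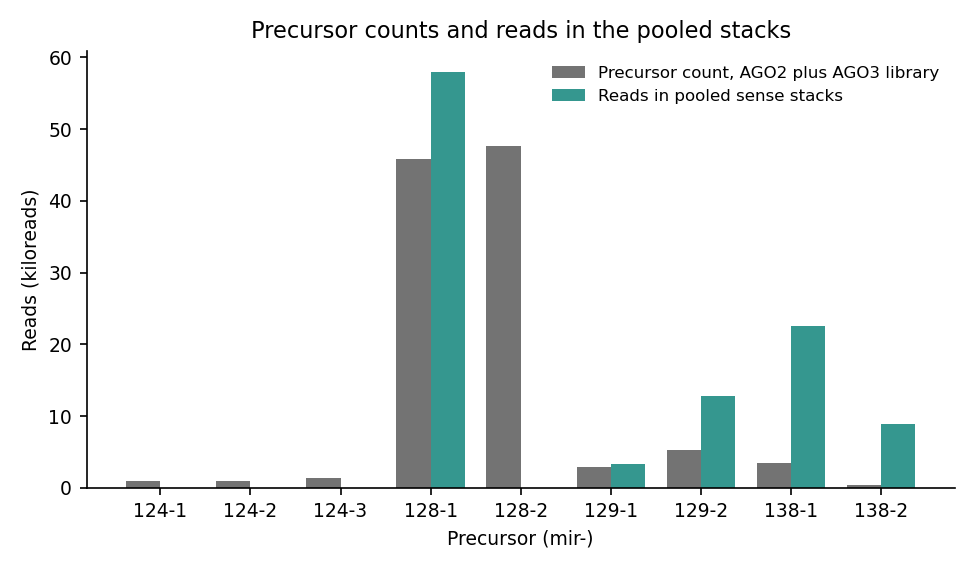
Counts of each precursor over the AGO2 and AGO3 libraries (grey) and reads in the pooled sense stacks named for it (green), on an axis of kiloreads. The bars of mir-128-1 stand at 45911 counts and 58031 stack reads, mir-128-2 has 47590 counts and no stack, and mir-138-1 and mir-138-2 have more stack reads than counts, at 6.42 and 25.0 per count.

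Differences from the reference, given in the stack list as edits, varied among these stacks. They came to 0.128 per read in mir-129-2 and mir-138-1, 0.144 and 0.153 in the upstream and downstream stacks of mir-128-1, 0.233 in mir-138-2 and 0.299 in mir-129-1. Over 323 precursor stacks with at least 1000 reads the median was 0.156 and the quartiles 0.139 and 0.164. The less read copy of miR-129 and of miR-138 thus carried more edits per read than its partner, and more than the upper quartile of these stacks. On the opposite strand, the only stack over any of the 9 was 1 of 3 reads at chr20:61809865-61809886, over mir-124-3.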

How the data were processed

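Small RNA bound to FLAG:AGO2 and FLAG:AGO3 was measured in 1 library each, and groups were taken from the sample titles. The deposited tables hold raw counts per miRNA precursor with the reads in all and mapped, per the file headers, and the counts sum to the mapped reads. The deposited stack list gives counts of pooled reads per stack. The submitters' processing notes name Bowtie2 2.1.0 and hg19 but not what they were used for. Not given in the sources used here are the miRBase release, the mismatches allowed, whether strand was used and the handling of reads with several matches.

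Log2 ratios compare the shares of precursor counts after adding 0.5 counts scaled to library size, with exact (Clopper-Pearson) 95% intervals from the AGO3 part of each count. Levels have exact Poisson intervals. Per the labels, the 5′ adapter adds 2 random bases to each read, and no label or header says whether they served to remove repeats of a molecule. All intervals cover counting error only and take each read as independent. If repeats were kept, the intervals are too narrow. Ratios were compared where both libraries together gave at least 100 counts, and at least 2-fold was called apart. The ratio and interval were tested on data simulated with counting error only, which cannot show how libraries of 1 protein vary. Named precursors are the 9, the brain-enriched ones past the minimum, the nearest precursor to the most counted copy of each miRNA, miRNAs with a shared seed and the tissue markers. The precursors and lists were chosen with earlier results of these data known. Stacks were matched by precursor name, and sequences by gene symbol to RefSeq tables on GRCh38.p14; coordinates were not converted between builds. Alternatives covered scaling (median of ratios, TMM with edgeR version 4.0.16, all reads), pseudocount, count minimum, summed copies and choice of stacks. Scripts ran in Python 3.11.15 (scipy 1.17.1, numpy 2.4.6, pandas 2.3.3; plots with matplotlib 3.10.9) and R 4.3.3.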

Additional observations from a re-analysis of the deposited data

How the results depend on the processing

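No paired analysis was possible because each protein has 1 library. With a pseudocount of 1, or with stacks of at least 10 reads, every value recomputed stayed within its interval or within 1.5 times. Against the shares of all precursor counts, median-of-ratios scaling moved the median of all precursors by −0.08, TMM by −0.16 and scaling to all reads by 0.33, and each ratio moved by about as much. With median-of-ratios scaling mir-128-1 was at 1.60, mir-128-2 at −0.15, miR-128 at 0.65 and miR-129 at 2.13. With TMM mir-128-1 was at 1.52, mir-128-2 at −0.23, mir-129-1 at 1.29, mir-129-2 at 2.59 and mir-138-1 at 2.36, and the sums at −1.42 (miR-124), 0.58 (miR-128), 2.05 (miR-129) and 2.17 (miR-138). With scaling to all reads mir-128-2 turned to 0.26; mir-124-1, mir-124-2 and mir-124-3 were at −0.40, −0.34 and −1.97, mir-128-1 at 2.01, mir-129-1 at 1.78, mir-129-2 at 3.08, mir-138-1 at 2.85 and mir-138-2 at 1.26, now past 2-fold. The sums were then at −0.94 (miR-124, no longer 2-fold), 1.06 (miR-128, now 2-fold), 2.54 (miR-129) and 2.66 (miR-138). With copies summed, each precursor takes the value of its miRNA: −1.26 for those of miR-124, 0.74 for those of miR-128, where mir-128-2 turns in sign, 2.21 for those of miR-129 and 2.33 for those of miR-138.

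The brain-enriched list had 1 precursor at least 2-fold apart with TMM, with scaling to all reads and with a minimum of 1000 counts, and 4 with no minimum. Its median was 0.16 with TMM, 0.65 with scaling to all reads, 0.50 with a minimum of 1000 counts and 0.17 with no minimum. With no minimum, 42.0% of all precursors were at least 2-fold apart. Counted on either strand, mir-124-3 had 3 stack reads in place of 0. The lack of replicates limits every comparison, and the low counts of mir-138-2 limit the precision of its ratio.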
